A study of Mus musculus with 6 samples.

Results

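Retnla, Chil3, Mrc1, Mgl2, Clec10a, Tgm2 and Tmem26 are genes commonly used to recognise macrophages that have responded to interleukin-4 (IL4). These 7 genes were looked up by symbol, from a list drawn up with earlier results of these data known, and all 7 were found among the 54446 genes counted in RNA-seq of bone marrow-derived macrophages (BMDMs). The marrow came from male BALB/c mice aged 6 to 8 weeks and was cultured for 7 days in medium conditioned by L929 cells, a fibroblast line that secretes the macrophage growth factor CSF-1. The BMDMs were left without polarization (M0), or were polarized for 24 hours with IFN-γ (20 ng/mL) plus LPS (50 ng/mL) to M1, or with IL4 (20 ng/mL) to M2. Each state was sequenced once with the multikinase inhibitor regorafenib (1 µM) and once with DMSO as the control, which makes 6 libraries with 1 library per condition. For M1 and M2 the drug was given 1 hour ahead of polarization. M0 had no polarization step, and the total time of its culture and drug exposure is not given in the sources used here. The comparisons ask whether regorafenib alters the response of macrophages to polarizing signals. How many mice or cultures contributed to a library is not given in the sources used here, so no difference below was checked in replicates.

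IL-4 binds a receptor made of the IL-4 receptor alpha chain and the common gamma chain, whose kinases Jak1 and Jak3 phosphorylate the transcription factor Stat6. Stat6 then enters the nucleus and switches on a set of genes in macrophages that includes secreted lectins and resistin-like proteins, surface lectin receptors and metabolic enzymes. Some of them, such as Retnla and Chil3, have no direct human counterpart and serve as labels of the M2 state in the mouse. In such cultures, fewer cells that express a gene and less RNA of the gene per cell cannot be told apart.

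The members fall into 3 kinds by their products. Retnla (chr16:48842551-48844461) encodes the secreted resistin-like molecule RELMα, also called Fizz1, and Chil3 (chr3:106147554-106167564) encodes Ym1, a secreted chitinase-like lectin without chitinase activity. Mrc1 (chr2:14229392-14332057) encodes the mannose receptor CD206, an endocytic C-type lectin, and the neighbouring genes Mgl2 (chr11:70130329-70137550) and Clec10a (chr11:70156197-70170834) encode the galactose-type lectin receptors CD301b and CD301a. Tgm2 (chr2:158116402-158146436) encodes transglutaminase 2, which crosslinks proteins, and Tmem26 (chr10:68723646-68782650) encodes a transmembrane protein better known as a marker of beige fat cells. All 7 are protein-coding genes, and positions are those of Gencode M21 on GRCm38.

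The counts deposited for a library summed to between 25359309 and 34898342. Levels are given as CPM, the counts of a gene per 1000000 counts of its library, with library totals adjusted by TMM, a method that aligns the bulk of genes between libraries. A log2 ratio compares the CPM of a pair of libraries. Intervals are 95% intervals of the counts themselves, so they cover counting error only and not the variation between cultures. A gene is called higher or lower in a pair of libraries at an absolute log2 ratio of at least 1, provided it had at least 10 counts in 1 or both of them. Of 8 macrophage marker genes, all 8 had more than 3 counts in every library, with summed levels of 21869 to 48726 CPM. None of 5 lymphocyte markers had more than 3 counts in any library. Summed levels ranged from 84.8 to 158 CPM for 7 neutrophil markers, of which Ly6g, Elane and Ngp held at most 3 counts in each library, while Mpo held 2064 to 5124 and S100a8 39 to 1804. They ranged from 2.16 to 144 CPM for 4 monocyte markers, from 3.19 to 10.2 CPM for 5 fibroblast markers, and from 0.516 to 39.0 CPM for 7 dendritic cell markers, the last with 780 and 827 counts of Ccr7 in the M1 libraries.

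In M2, regorafenib did not move the 7 markers in 1 direction. The genes of the secreted proteins, Retnla and Chil3, were higher with regorafenib, by 4.64-fold and 2.32-fold. Mgl2, Clec10a and Tmem26 were lower, by 5.07-fold, 4.68-fold and 4.37-fold. Mrc1 and Tgm2 were lower by 1.44-fold and 1.59-fold and were not called. The sequences upstream of the start of Retnla and Chil3, the 2 members called higher, and of Mgl2 and Tmem26, called lower, are given here because all 4 genes were far higher in M2 than in M0 and yet differed in direction with the drug. They are the RefSeq sequences of GRCm38.p6, the C57BL/6J reference, whereas the mice were BALB/c. The table of upstream sequences held 5 of the 7 members, and Clec10a and Tgm2 were the missing ones. Each line reads 5′ to 3′ on the strand of the gene and begins 250 bases before the RefSeq start. It ends at the base before the start of the gene in RefSeq or Gencode, whichever comes first: chr16:48842359-48842550 (plus strand) for Retnla, chr3:106167565-106167814 (minus strand) for Chil3, chr11:70130107-70130328 (plus strand) for Mgl2 and chr10:68723496-68723645 (plus strand) for Tmem26. Capitals mark matches to the motifs that follow.
Retnla: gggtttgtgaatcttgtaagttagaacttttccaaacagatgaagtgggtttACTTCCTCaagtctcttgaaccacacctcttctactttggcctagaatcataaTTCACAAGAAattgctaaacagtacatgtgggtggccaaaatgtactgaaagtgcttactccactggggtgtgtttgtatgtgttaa
Chil3: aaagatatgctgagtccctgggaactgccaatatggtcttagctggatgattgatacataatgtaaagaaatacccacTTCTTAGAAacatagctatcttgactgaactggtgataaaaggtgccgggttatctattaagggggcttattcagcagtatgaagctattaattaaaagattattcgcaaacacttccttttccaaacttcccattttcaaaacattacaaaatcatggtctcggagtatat
Mgl2: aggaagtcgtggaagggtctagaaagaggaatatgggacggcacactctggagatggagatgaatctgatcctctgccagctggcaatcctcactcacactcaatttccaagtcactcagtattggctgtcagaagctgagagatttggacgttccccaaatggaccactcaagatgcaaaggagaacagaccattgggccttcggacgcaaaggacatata
Tmem26: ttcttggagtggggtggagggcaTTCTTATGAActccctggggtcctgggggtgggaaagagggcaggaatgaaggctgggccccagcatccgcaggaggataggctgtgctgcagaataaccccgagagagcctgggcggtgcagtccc

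The 250 bases before each RefSeq start were searched on both strands for 5 motifs: TTCNNNNGAA, the spacing that Stat6 prefers; TTCNNNGAA, the spacing of other Stat proteins; TATAAA, the TATA box; GAGGAAGT, bound by PU.1; and TGACGTCA, the cAMP response element. Retnla held TTCACAAGAA at -145 to -136, counted back from -1 at the base before the RefSeq start. It also held ACTTCCTC, the reverse complement of GAGGAAGT, at -198 to -191, and a TATAAA at -30 to -25, past the stretch printed. Chil3 held TTCTTAGAA at -172 to -164. Tmem26, which went the other way with regorafenib, held matches to TTCNNNNGAA at -227 to -218 (TTCTTATGAA) and, past the stretch printed, at -41 to -32 (TTCTCTGGAA). The windows of Mrc1 and Mgl2 held no match to any of the 5 motifs. No match overlapped another. Of all 32851 upstream windows of the same length, 5.85% held TTCNNNNGAA, 7.02% TTCNNNGAA, 12.4% TATAAA, 2.44% GAGGAAGT and 1.55% TGACGTCA. A match is a description of letters and not evidence of binding.

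Retnla was close to silent outside M2. It had 0 counts in M0 control and M0 regorafenib, 2 in M1 control and 0 in M1 regorafenib, against 941 in M2 control and 3348 in M2 regorafenib. With the M0 libraries set at the floor of 3 counts, Retnla in M2 was at least 264-fold higher among controls and at least 1315-fold higher with regorafenib. Its level in M2 went from 25.8 CPM (interval 24.2 to 27.5) to 119.7 CPM (115.7 to 123.8) with regorafenib, a log2 ratio of 2.22 (2.11 to 2.32). In the M2 control library, 88.7% of all 54446 genes had a lower count than Retnla, and in the M2 regorafenib library 97.2% did. Many of these genes had 0 counts: 19625 genes had a count in M2 control and 19045 in M2 regorafenib. Retnla ranked 6125 in M2 control and 1499 in M2 regorafenib.

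Chil3 had the same on-off pattern with fewer counts. Control and regorafenib held 0 and 1 counts of it in M0 and 1 count each in M1, but 379 and 675 counts in M2. The level in M2 went from 10.4 CPM (9.36 to 11.5) to 24.1 CPM (22.3 to 26.0), a log2 ratio of 1.22 (1.03 to 1.40). In M2, Retnla had 2.48 times the counts of Chil3 in the control and 4.96 times with regorafenib, so Retnla also gained on Chil3. Chil3 shares 95.4% of its coding bases with its paralog Chil4, which encodes Ym2. Of its 100-base words, 4.93% occur in Chil4 or the gene Gm6522, so a single read of those words does not by itself tell the genes apart. Reads came in pairs, and the other read of a pair can fall outside such words. Chil4 had 71 counts in M2 control and 72 in M2 regorafenib, and with the counts of both genes summed the log2 ratio in M2 was 1.12.

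Mrc1 was the member with the most counts in both M2 libraries. It had 614 counts in M0 control and 805 in M0 regorafenib, but 20 and 9 in M1 against 24237 and 12895 in M2. This is 664 CPM in M2 control against 19.99 CPM in M0 control and 0.774 CPM in M1 control. With regorafenib, Mrc1 was lower in M2 (log2 ratio -0.53, interval -0.56 to -0.50) and slightly higher in M0 (0.29, 0.14 to 0.44). In M1 it was lower (-1.05), but the interval of -2.37 to 0.15 spans no change at these few counts. Mrc1 had 25.8 times the counts of Retnla in M2 control and 3.85 times with regorafenib. The microRNA gene Mir511 lies inside Mrc1 on the same strand.

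Mgl2 and Clec10a, the lectin receptor genes that lie side by side, went down together in M2. Mgl2 had 1 count in M0 control and 4 in M0 regorafenib, 0 in both M1 libraries, and 2017 in M2 control against 305 in M2 regorafenib. Clec10a had 83 counts in M0 control and 67 in M0 regorafenib, only 6 and 1 in M1, but 1449 and 237 in M2. The log2 ratio of regorafenib to control in M2 was -2.34 (-2.52 to -2.17) for Mgl2 and -2.23 (-2.43 to -2.03) for Clec10a. Both M0 libraries thus expressed Clec10a with hardly any Mgl2: Clec10a made up 98.8% of the counts of the pair in M0 control (exact binomial interval 93.5% to 99.97%) and 94.4% in M0 regorafenib (86.2% to 98.4%). In M2 its share was 41.8% in control (40.2% to 43.5%) and 43.7% with regorafenib (39.5% to 48.0%), and these intervals overlap. The coding sequences of the pair are 91.1% identical, and 3.95% of the 100-base words of Mgl2 and 2.64% of those of Clec10a occur in the other gene. With the counts of both genes summed, the log2 ratio in M2 was -2.29.

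Tmem26 was the member called lower with regorafenib in both M0 and M2. Its counts were 418 in M0 control and 65 in M0 regorafenib, 8 and 12 for M1, and 6952 and 1219 for M2. The log2 ratio was -2.79 (-3.19 to -2.41) in M0 and -2.13 (-2.22 to -2.04) in M2. In M1, where the gene was near its lowest level, the ratio was 0.69 with an interval of -0.73 to 2.18.

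Tgm2 did not follow the M2 state. Its counts were 6742 in M0 control and 4895 in M0 regorafenib, against 30540 and 18525 for M1 and 10089 and 4858 for M2, so its highest level was in M1 (1182 CPM in control and 769 CPM with regorafenib). With regorafenib it was lower in each state, by a log2 ratio of -0.56 (-0.62 to -0.51) in M0, -0.62 (-0.65 to -0.59) in M1 and -0.67 (-0.72 to -0.62) in M2, each under the 2-fold rule. Tgm2 overlaps Rprd1b and Gm20412, which lie on the opposite strand, and 15.5% of its 100-base words also occur in their transcripts. The strand setting of the counting is not stated, so reads of the overlap cannot be assigned from these counts. Rprd1b had 820 to 1186 counts in the 6 libraries and Gm20412 had 0 to 10.

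**Figure D1:**
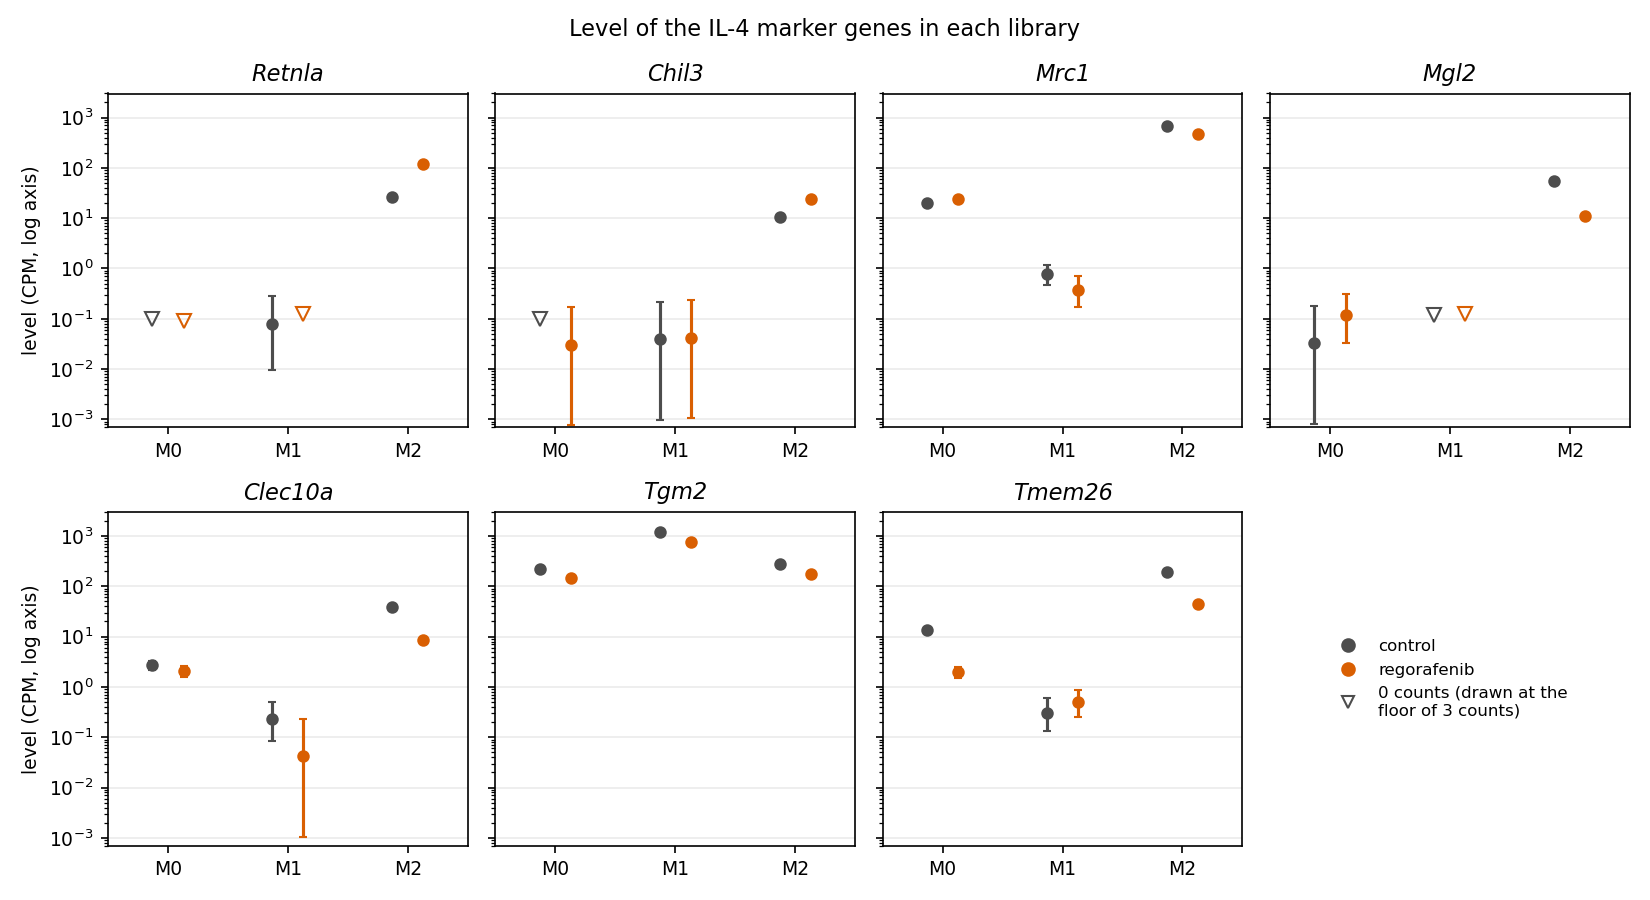
Level of each IL-4 marker gene in the 6 libraries, in TMM-scaled CPM on a log axis, with 95% intervals of the counts (1 library per point; many intervals are narrower than the point). Retnla, Chil3 and Mgl2 sit at 0 to 4 counts in M0 and M1, open triangles mark 0 counts and are drawn at the floor of 3 counts, and Tgm2 alone peaks in M1 at 1182 CPM.

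Per kilobase of exons, the scale on which levels of different genes can be set side by side, the order of the members in M2 changed with the drug. In M2 control, Mrc1 had the highest level (104 CPM per kilobase), followed by Tgm2 (60.0), Retnla (43.0), Tmem26 (36.1), Mgl2 (26.4), Clec10a (13.7) and Chil3 (6.36). In M2 regorafenib, Retnla was the highest at 199.8 CPM per kilobase, followed by Mrc1 at 72.4, Tgm2 at 37.7, Chil3 at 14.8, Tmem26 at 8.25, Mgl2 at 5.21 and Clec10a at 2.92. Chil3 thus moved from the lowest of the 7 to above Tmem26, Mgl2 and Clec10a. Without scaling by length, the summed level of the members was 1262 CPM in M2 control and 841 CPM in M2 regorafenib, with Mrc1 making up 52.6% and 54.8% of their counts. In M0 and M1, Tgm2 made up 83.9% to 99.9% of the counts of the 7 genes.

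Ordered by level over the 6 libraries, each of the 6 members other than Tgm2 had both M2 libraries on top, and every one of these steps from M2 to the next library exceeded the counting interval. Below them, the libraries of Retnla, Chil3 and Mgl2 could not be ordered at their counts. The difference between M0 control and M0 regorafenib was within counting error for Clec10a, as was that between the M1 libraries for Mrc1, Clec10a and Tmem26. For Tgm2, each neighbouring pair in the order M1 control, M1 regorafenib, M2 control, M0 control, M2 regorafenib and M0 regorafenib differed beyond counting error. From highest to lowest library, the level spanned 1778-fold for Mrc1, 615-fold for Tmem26 and 7.96-fold for Tgm2.

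Set against the control in M2, 2 of 7 members were called higher with regorafenib and 3 of 7 lower, while 6.15% of all 13813 genes tested were called higher and 5.07% lower (11.2% in all). The median log2 ratio of the members was -0.67, against -0.03 over all genes. In M0, 4 members had enough counts: none was called higher and Tmem26 was called lower, against a background of 9.47% of 13964 genes higher and 10.9% lower (20.4% in all). Their median was -0.49, against 0.00497 over all genes. In M1, 3 members had enough counts, and 0 were called higher and 1, Mrc1, lower, a call whose counting interval (-2.37 to 0.15) spans 0 and which is lost with 1 CPM added, against 1.76% higher and 3.46% lower of 13440 genes (5.22% in all). Their median was -0.62, against -0.02 over all genes. M1 thus had the fewest members to compare and the fewest calls over all genes. Retnla, Chil3 and Mgl2 had under 10 counts in both libraries of M0 and of M1, so a response of these genes to regorafenib could be read only in M2.

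Some marker genes of the other lists moved in the same pair of M2 libraries, and their part in the results was not tested. Of the macrophage markers, Mertk was called higher with regorafenib (295 to 573 counts) and Fcgr1 lower (710 to 229), and the summed level of the list went from 21869 to 33539 CPM, with log2 ratios of 0.72 for Lyz2 and 0.68 for Csf1r. Of the dendritic cell markers, Zbtb46 was called higher (15 to 59 counts) and the summed level of the list went from 0.876 to 2.79 CPM, with Flt3, Xcr1 and Clec9a at 3 counts or fewer in both libraries. Ccr2, a monocyte marker, was called higher (280 to 434 counts), and the sum of its list went from 15.1 to 27.1 CPM. Of the neutrophil markers, S100a9 was called higher (0 to 11 counts), and Mpo, with a log2 ratio of 0.58, took the sum of its list from 88.8 to 132 CPM. Markers were also called in the pairs in which Tmem26 and Mrc1 were called lower, and their part was likewise not tested. In M0 these were Mertk (380 to 1230 counts), Ccr2 (325 to 757), Col1a1 (37 to 114), Col1a2 (46 to 188) and Col3a1 (4 to 13), which were higher with regorafenib, and Fcgr1 (3072 to 1184), Cd14 (31650 to 16464), Zbtb46 (14 to 5) and Ccr3 (58 to 13), which were lower. In M1, Xcr1 was higher (36 to 102 counts), and Fcgr1 (4314 to 1715), S100a8 (1804 to 489), Ly6c2 (25 to 8), Cx3cr1 (83 to 24) and Dcn (100 to 39) were lower.

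**Figure D2:**
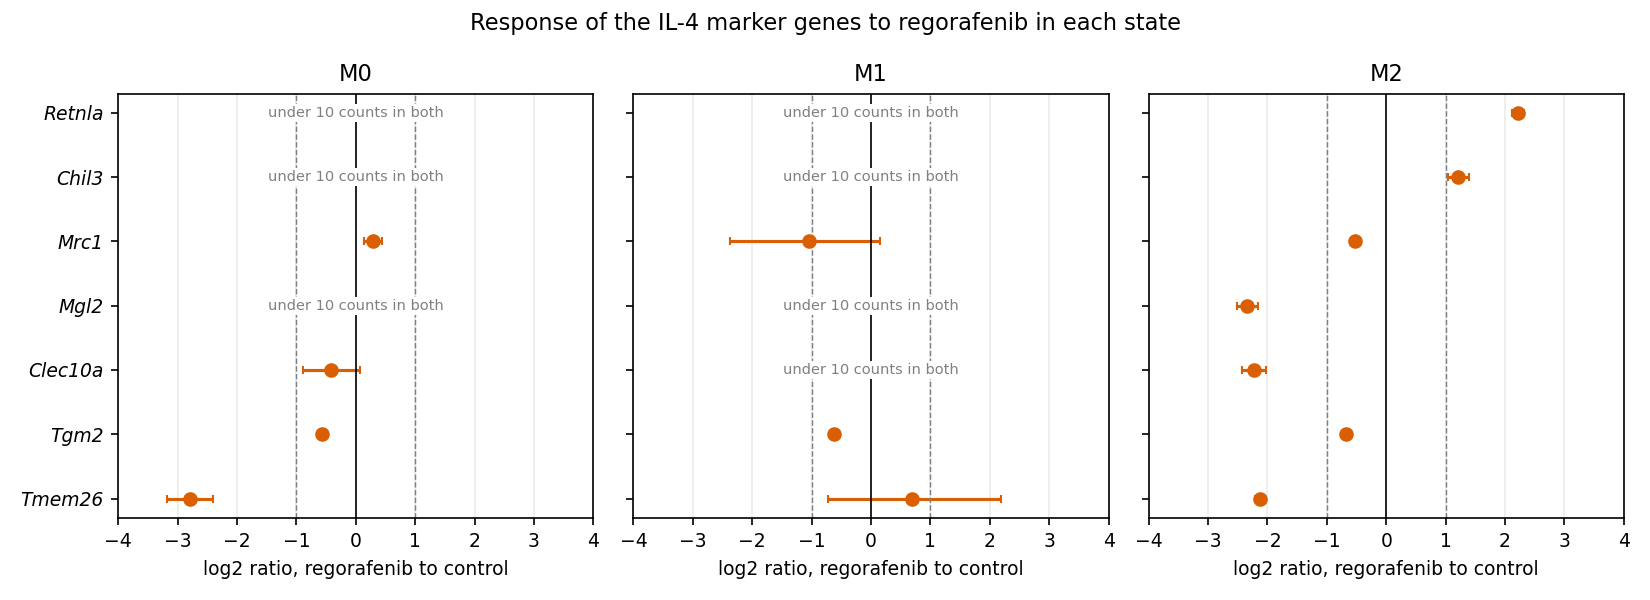
Log2 ratio of regorafenib to control for each member in M0, M1 and M2, with 95% intervals of the counts; dashed lines mark a 2-fold difference. In M2, Retnla (2.22) and Chil3 (1.22) lie to the right and Mgl2, Clec10a and Tmem26 (-2.34 to -2.13) to the left, while in M0, of the 4 members with at least 10 counts in a library, only Tmem26 passes 2-fold.

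The response to IL4, read as M2 against M0, was large for all members but Tgm2, both with and without the drug. The culture time of M0 is not given, so a difference in time between M0 and M2 cannot be told apart from IL4. Among the controls, 6 of 7 members were called higher in M2 and 0 lower, against 4.69% and 7.61% of 13830 genes (12.3% in all), and among the regorafenib libraries the numbers were again 6 and 0 of 7, against 4.41% and 5.18% of 13841 genes (9.59% in all). The median log2 ratio of the members was 5.05 in control and 4.47 with regorafenib, also with genes at 0 counts set at their bound, against 0.013 and -0.03 over all genes. Besides the bounds given for Retnla, Chil3 was at least 106-fold higher in control, with M0 control set at the floor of 3 counts. Its log2 ratio with regorafenib was 9.64 (7.15 to 14.94) against 1 count in M0. Mgl2 had a log2 ratio of 10.73 (8.25 to 16.03) in control, also against 1 count, and of 6.49 (5.12 to 8.37) with regorafenib. Tgm2 was higher by 0.33 (0.29 to 0.38) in control and by 0.23 (0.17 to 0.28) with regorafenib and was called in neither. Marker genes of the cell type lists were also called in these pairs, and their part in the results was not tested. Cx3cr1 was lower in M2 (4099 to 271 counts in control and 3949 to 324 with regorafenib), and the sum of the monocyte list went from 144 to 15.1 CPM and from 143 to 27.1 CPM. Fcgr1 (3072 to 710 and 1184 to 229 counts) and Cd14 (31650 to 9888 and 16464 to 5611) were also lower in both pairs. In control, Adgre1 was higher (19492 to 46339 counts) and S100a8 lower (123 to 68), and with regorafenib Zbtb46 (5 to 59) and S100a9 (2 to 11) were higher. Siglecf and Ccr3, of the eosinophil list, are described with that list.

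For the 4 members with enough counts in both M0 libraries, the response to IL4 could be compared between the drug and the control. The log2 ratio of M2 to M0 was 5.05 in control and 4.24 with regorafenib for Mrc1, a difference of -0.82 (-0.97 to -0.66). For Clec10a it was 3.88 and 2.06, a difference of -1.82 (-2.32 to -1.31). For Tgm2 the difference was -0.11 (-0.18 to -0.03), which was -0.07 with DESeq2 size factors and -0.04 with total counts. Tmem26 went the other way, with ratios of 3.81 and 4.47 and a difference of 0.66 (0.27 to 1.05), which was 0.19 with 1 CPM added to both values of a ratio. Although the level of Tmem26 was lower with regorafenib in both states, it was lower by more in M0, so that the step from M0 to M2 was no smaller with the drug. These intervals again cover counting error only.

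**Figure D3:**
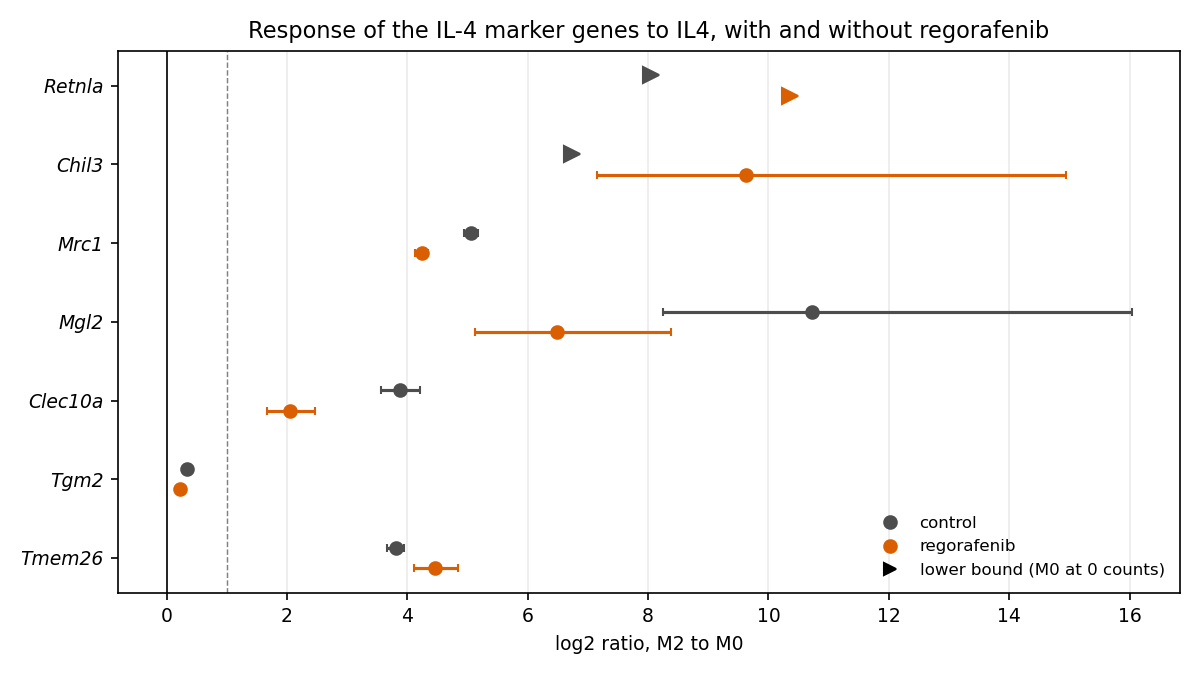
Log2 ratio of M2 to M0 for each member, with and without regorafenib, with 95% intervals of the counts; triangles are lower bounds against a library at 0 counts and the dashed line marks 2-fold. Clec10a drops from 3.88 to 2.06 with regorafenib, Tmem26 goes from 3.81 to 4.47, and Tgm2 stays near 0 at 0.33 and 0.23.

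The markers with enough counts in M0 were lower in M1, except Tgm2. Of the 4 members with enough counts, 1 (Tgm2) was called higher and 3 lower in M1 than in M0, both among the controls, where 17.4% of 14168 genes were higher and 19.7% lower (37.1% in all), and among the regorafenib libraries, where 16.3% of 14159 genes were higher and 21.6% lower (37.9% in all). The member medians were -4.12 and -3.80, against -0.046 and -0.094 over all genes. Tgm2 was higher by 2.43 (2.39 to 2.47) in control and by 2.37 (2.33 to 2.42) with regorafenib. Mrc1 was lower by a log2 ratio of -4.69 in control and -6.03 with regorafenib, and Clec10a by -3.54 and -5.61, the last resting on 1 count in M1 (-10.94 to -3.09). Tmem26 had -5.46 in control and -1.99 with regorafenib. Its call with regorafenib is lost with 1 CPM added, where the ratio was -0.99. The difference for Tmem26, 3.47 (2.13 to 4.82), came with 418 and 65 counts in the M0 libraries and 8 and 12 counts in the M1 libraries. For Mrc1 the difference between regorafenib and control was -1.34 (-2.49 to -0.20), with 20 and 9 counts in M1. For Tgm2 it was -0.06 (-0.12 to 0.002). Of the cell type markers, whose part was not tested here either, Adgre1, Mertk, Cd14, Xcr1, Ccr7, S100a8, Camp and Dcn were called higher in M1 in both pairs, and Cd68, Siglecf, Ccr2 and Cx3cr1 lower. In control, Adgre1 went from 19492 to 158131 counts, S100a8 from 123 to 1804, Cd68 from 39757 to 8988 and Cx3cr1 from 4099 to 83. The monocyte sum went from 144 to 5.30 CPM in control and from 143 to 2.16 CPM with regorafenib. Called in 1 pair were Ly6c2, higher, and Ccr3, lower, in control, and Itgam, higher, and Lyz2, Col1a2, Col3a1 and Pdgfra, lower, with regorafenib.

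Other genes of the IL-4 response also went both ways in M2. Of 17 such genes, 16 had enough counts, 7 were called higher with regorafenib and 2 lower, and their median log2 ratio was 0.78, against 6.15% of all genes higher, 5.07% lower and a median of -0.03. Called higher with the drug were the chemokine genes Ccl24 (3.98, 15 and 181 counts), Ccl17 (3.63, 4 and 38 counts) and Ccl22 (1.62). Pdcd1lg2 (2.52), which encodes the checkpoint ligand PD-L2, the transcription factor genes Irf4 (1.29) and Batf3 (1.41), and Ppargc1b (1.16), a coactivator of mitochondrial genes, were also called higher. Called lower were Cdh1 (-2.51), which encodes E-cadherin, and the transcription factor gene Klf4 (-1.12). Among the controls, Ccl22 had a higher level in M1 (50.1 CPM) than in M2 (4.71 CPM), as had Ccl17 (0.735 and 0.110 CPM). Ccl24 had 0.0774 CPM in M1 control and 0.411 CPM in M2 control. Between M2 control and M0 control, Ccl17 had too few counts for a call (4 and 1). With regorafenib in M0, 2 of 12 genes of this list were called higher and 3 lower, against 9.47% and 10.9% of all genes. The median of the 12 was -0.15, against 0.00497 over all genes. In M1, 3 of 11 were called higher and 1 lower, against 1.76% and 3.46% of all genes. The median of the 11 was 0.62, against -0.02 over all genes. The 3 called higher in M1 were Ccl17 (4.40, 19 and 375 counts), Ccl22 (2.34) and Batf3 (1.32), each also called higher in M2. In M2 against M0, 12 of 15 genes of the list were called higher in control, against 4.69% of all genes. With regorafenib 15 of 16 were called higher, against 4.41%. In either pair 0 were called lower, against 7.61% and 5.18%.

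The genes that carry the IL-4 signal into the cell had log2 ratios from -0.67 to 1.53 in M2. Of 10 receptor and signalling genes, 2 were called higher with regorafenib and 0 lower, against 6.15% and 5.07% of all genes, with a median log2 ratio of 0.40 against -0.03 over all genes. Il4ra, the receptor alpha chain, had 689 counts in M2 control and 704 in M2 regorafenib (log2 ratio 0.42), and Stat6 had 13367 and 8001 (-0.36). The called genes were Cish (1.53), a feedback inhibitor of cytokine signalling, and Il13ra1 (1.28), the IL-13 receptor chain that can pair with Il4ra. In M0, Il4ra was called higher, with 941 counts in control and 2123 with regorafenib (1.07), and Socs1, another feedback inhibitor, was called lower (-1.69). Of 10 genes, 1 was thus called in each direction in M0, near the 9.47% higher and 10.9% lower of all genes. In M1, 1 was called higher, Cish (1.97), and 0 lower, against 1.76% and 3.46% of all genes.

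**Figure D4:**
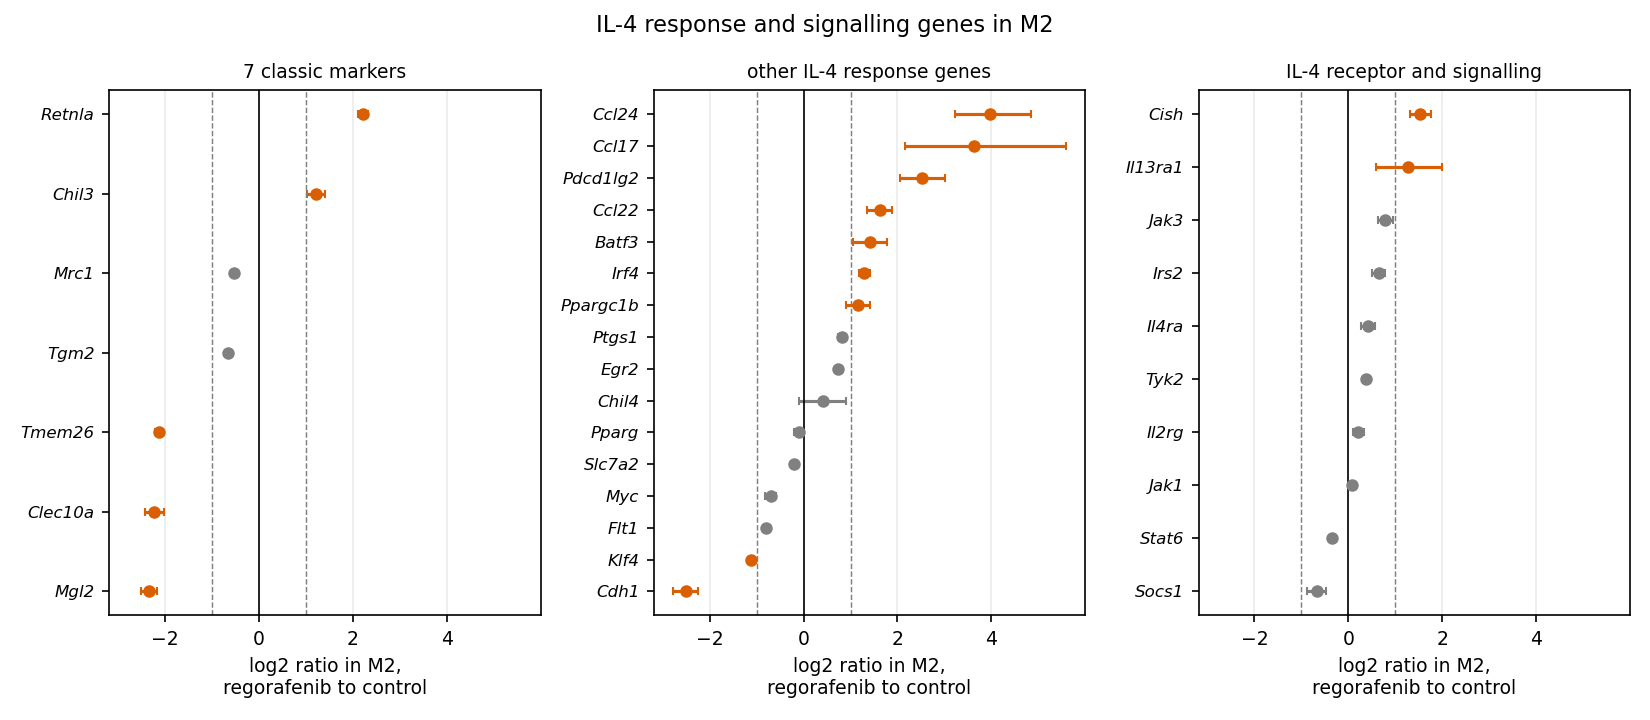
Log2 ratio of regorafenib to control in M2 for the 7 markers, for 16 other IL-4 response genes and for 10 IL-4 receptor and signalling genes, with 95% intervals of the counts; coloured points are 2-fold or more apart and dashed lines mark 2-fold. Both response panels hold genes on each side, from Cdh1 at -2.51 to Ccl24 at 3.98, while the signalling genes lie between -0.67 and 1.53.

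Among relatives of the members, Retnlb, Retnlg and Chia1 had 0 counts in all 6 libraries. Chil1 had at most 6 counts, Cd209a at most 7 and Mrc2 at most 18. Tgm1, a transglutaminase better known from skin, had 119 counts in M1 control and 50 in M1 regorafenib and at most 15 in the other libraries, again with its highest level in M1.

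Retnla and Chil3 are also expressed by eosinophils. Of 5 eosinophil markers, Epx, Prg2 and Ear6, which encode granule proteins, had at most 3 counts in each library, and the summed level of the list was 9.34 CPM in M2 control and 9.33 CPM in M2 regorafenib, against 2.44 and 1.43 CPM in M0. From M0 control to M2 control, Siglecf (16 to 80 counts) and Ccr3 (58 to 261) were called higher, as they were with regorafenib (34 to 233 and 13 to 28). Their part in the results was not tested. Between the M2 libraries, Siglecf was thus higher with regorafenib and Ccr3 lower.

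The genes whose levels over the 6 libraries were most like those of each member were ranked by Pearson's correlation of log2(CPM + 1) among 10660 genes with at least 100 counts in 1 or more libraries. These values describe 6 libraries, which share states and treatments and are not independent. Nearest to Retnla was Rnase2a, an eosinophil-associated ribonuclease gene (r = 0.9998), which held 0 to 2 counts outside M2 and 1181 and 4003 counts in M2 control and regorafenib. Scn3a, a sodium channel gene, came next (119 and 186 counts in M2 and 0 elsewhere), and Chil3 was the third. Scn3a, Rnase2a and Ocstamp, a gene of osteoclast fusion, were nearest to Chil3. For Mgl2 they were Il31ra, Msx3 and Ablim1, each of which had fewer counts in M2 regorafenib than in M2 control: 78 against 210 for the cytokine receptor gene Il31ra, 307 against 3693 for the homeobox gene Msx3 and 262 against 893 for Ablim1, which encodes an actin-binding protein. The nearest genes were Vat1, Zfp668 and Etv3 for Mrc1, and Ap2a2, Map6 and Rps15-ps2 for Clec10a. For Tmem26 they were Slc39a6, Mfn2 and Map1a, and for Tgm2 Yipf5, Rgcc and Dtwd1. Pearson's r does not depend on the size of a change. Zfp668 held only 213 to 456 counts over the 6 libraries, where Mrc1 spanned 1778-fold. Mfn2 held 1687 to 3503 counts, where Tmem26 spanned 615-fold. Between members, r was 0.998 for Retnla and Chil3, 0.972 for Clec10a and Tmem26 and 0.936 for Mgl2 and Clec10a, while Tgm2 had negative values, from -0.74 to -0.34, with each of the other 6.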

How the data were processed

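The deposited values are whole-number counts per gene, not normalized. By the methods of the study, the authors checked reads with FastQC, trimmed them with cutadapt 2.4, and mapped and counted them with STAR 2.7.2a on GRCm38 and Gencode M19. Libraries were made with a TruSeq Stranded mRNA kit, and the strand column taken is not stated. Names and positions came from Gencode M21; 53229 IDs matched with their version, 1180 without it and 37 did not match. Counts were scaled with TMM (edgeR 4.0.16, R 4.3.3) over the 6 libraries, with factors of 0.820 to 1.12. A count of 0 was set to 0.5 in a ratio, and intervals are conditional exact binomial intervals of the counts (scipy 1.17.1). They were checked on data simulated with counting error only, so the check does not reach the variation between cultures. With 1 library per condition no test was made, and the study's own method, which simulates replicates, was not used. The alternatives were DESeq2 1.42.0 size factors, total counts, 1 CPM added, a fold of 4, no minimum count, paralogs summed and a pseudocount of 0.1 CPM. Named genes are the members, the 3 genes most like each member, those of the lists described, and genes that overlap members. A gene of the other IL-4 response list is not reported here. The members and lists were chosen with earlier results of these data known.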

Additional observations from a re-analysis of the deposited data

Results flagged for a closer look

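Mrc1 went in opposite directions with regorafenib in M0 and M2. Its log2 ratio was 0.29 in M0, from 614 to 805 counts, and -0.53 in M2, from 24237 to 12895 counts, and neither interval of the counts included 0. Each state had 1 library per side, so whether the difference between the states exceeds the variation between cultures was not tested.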

How the results depend on the processing

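Each comparison within a state has 1 library per side, so leaving out a library leaves none on that side. A fit of a drug effect common to the 3 states, with state as a block, could be made but was not run. Under DESeq2 size factors and total counts per library, all 36 member log2 ratios kept their sign and all 14 counts of called members stayed as reported, while 2 and 6 of the ratios fell outside their counting interval, among them Tgm2 in M1 against M0 for control, which was 1.99 with total counts, and Mrc1 with regorafenib in M2, which was -0.45 with total counts. With 1 CPM added, 16 of the 36 ratios fell outside their counting interval, among them Mgl2 in M2 against M0 for control, from 10.73 to 5.77, and Tmem26 in M1 against M0 with regorafenib, from -1.99 to -0.99. The number called lower in that last comparison, 3 as reported, was 2 with 1 CPM added and 2 at a fold of 4. The number of members called lower with regorafenib in M1, 1 as reported, was 0 with 1 CPM added and 0 at a fold of 4. The 1 member is Mrc1, with 20 and 9 counts there. The number called higher in M2, 2 as reported, was 1 at a fold of 4. The difference in the IL4 response of Tmem26 was 0.19 with 1 CPM added, against 0.66. The levels to which 1 CPM was added were 13.6 CPM in M0 control and 1.97 CPM in M0 regorafenib. In M2 they were 190 CPM in control and 43.6 CPM with regorafenib. With Clec10a and Mgl2 summed, the log2 ratio of M2 to M0 was 5.12 in control and 3.17 with regorafenib. Without a minimum count, 31.4%, 19.7% and 24.8% of all genes were called with regorafenib in M0, M1 and M2. The shares were 25.2% and 23.4% in M2 against M0 for control and regorafenib. With 1 CPM added, regorafenib had 553 genes called higher and 942 lower for M0, 53 and 101 for M1, and 296 and 269 for M2. For M2 against M0 they were 280 and 500 in control and 266 and 185 with regorafenib, so that 59.0% of the last were higher instead of 46.0%. Scaling by total counts shifted the median of all genes in M1 against M0 by -0.44 in control and -0.41 with regorafenib and took the share of calls that were higher from 46.8% to 30.3% and from 43.1% to 27.7%. With a pseudocount of 0.1 CPM, the 3 genes most like a member included all 3 of those named for Retnla, 2 for Chil3 and Tgm2, 1 for Mrc1, Mgl2 and Tmem26, and 0 for Clec10a. At counts of a few reads, differences of Retnla, Chil3 and Mgl2 in M0 and M1 were not detectable at this depth.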
